A study of Mus musculus with 9 samples.

Results

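The markers of microglia and macrophages examined here were 9 genes, Aif1, Cx3cr1, P2ry12, Tmem119, Csf1r, Itgam, Cd68, Trem2 and Tyrobp, taken by their symbols from the 54532 genes of a bulk RNA-Seq count table of the mouse neurosensory retina. All 9 were found, and all 9 were among the 17540 genes kept by the filter on low counts. The samples were retinas of 9 wild type C57BL/6 mice at postnatal day (P) 17, 3 in each of 3 groups. Control mice did not undergo oxygen-induced retinopathy (OIR), the model in which pups are raised in high oxygen and then returned to room air, so that the under-vascularized retina becomes hypoxic. OIR mice received a single intraocular injection of DMSO, the vehicle, at P12. The treated OIR mice (OIR+32-134D) received instead the hypoxia-inducible factor (HIF) inhibitor 32-134D at P12, at 70 ng by the sample labels and at 70 ng per microlitre by the protocol text. The labels of the control mice also name DMSO. Each mouse keeps its label number, so the control mice are 1, 6 and 7, the OIR mice 3, 5 and 6, and the OIR+32-134D mice 2, 5 and 10. Equal numbers in different groups are different animals.

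Microglia are the resident macrophages of the retina. They hold their place and survive through the receptor CSF1R and its ligands CSF1 and IL34, they receive signals from neurons through the receptor CX3CR1 and its ligand CX3CL1, and they sense nucleotides through P2RY12. TREM2 is a lipid receptor that signals through the adaptor TYROBP, and CD68 is a glycoprotein of their lysosomes. In hypoxic retina, microglia and macrophages entering from blood are known to gather near growing vessels, and activated microglia commonly carry less P2ry12 and Tmem119 RNA. Of the 9 markers, P2ry12 and Tmem119 are commonly used to mark resident microglia, while the other 7 are shared with macrophages of other origins. Fewer cells and less RNA per cell cannot be told apart in bulk tissue.

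Total counts ranged from 16028731 to 27213184 per mouse, and the 9 markers together took 990 to 7055 of them. Two-sided tests below are edgeR's quasi-likelihood test on all 9 mice, with Benjamini-Hochberg adjustment over the 17540 genes, and a gene was called at an adjusted p below 0.05. Levels are in CPM, counts divided by the size of the library after scaling by the trimmed mean of M values (TMM), and log2 CPM carries a prior count of 2. Control mouse 1 and OIR+32-134D mouse 2 stood apart. Crystallin genes, which mark lens, took 15.8% of the counts of OIR+32-134D mouse 2 and at most 0.184% in any other mouse. Control mouse 1 carried marker RNA at the level of the highest OIR mouse. Results are given with and without these mice where they touch a value. By Xist and Y chromosome genes, 1 control, 1 OIR and 2 OIR+32-134D mice were female.

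On GRCm38, the build whose positions 98.3% of the shared gene identifiers carried, the markers lie on 7 chromosomes. Aif1 (ENSMUSG00000024397, chr17:35170991-35176068), Tmem119 (ENSMUSG00000054675, chr5:113793729-113800516), Cd68 (ENSMUSG00000018774, chr11:69664213-69666153), Trem2 (ENSMUSG00000023992, chr17:48346401-48354147) and Tyrobp (ENSMUSG00000030579, chr7:30413760-30417585) overlap no other annotated gene. P2ry12 (ENSMUSG00000036353, chr3:59216272-59262871) lies within Med12l on the opposite strand, Itgam (ENSMUSG00000030786, chr7:128062640-128118491) overlaps Gm49368 on its own strand, and Csf1r (ENSMUSG00000024621) overlaps Hmgxb3 and Mir6983. Cx3cr1 (ENSMUSG00000052336, chr9:119901616-120069879) is drawn as a long gene model that spans several other genes. Whether counting used strand is not given in the sources used here, so reads of P2ry12, Csf1r, Cx3cr1 and Itgam may be shared with these neighbours.

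Promoters of 6 of the 9 markers, each of 300 bases ending shortly after the start site, were matched by symbol in RefSeq on GRCm38.p6. Those of Cd68 and Trem2 are shown because these markers had the largest differences between OIR+32-134D and OIR retinas among the 6, and that of P2ry12 because its difference was the smallest. Each is written 5′ to 3′ on the strand of its gene, Cd68 from chr11:69666121-69666420 (minus strand), Trem2 from chr17:48346151-48346450 (plus strand) and P2ry12 from chr3:59262936-59263235 (minus strand). Capitals mark matches, on either strand, to the letters of the PU box GAGGAA, bound by PU.1 (the product of Spi1), of AP-1, TGANTCA, and of C/EBP, TTGCNNAA.
Cd68: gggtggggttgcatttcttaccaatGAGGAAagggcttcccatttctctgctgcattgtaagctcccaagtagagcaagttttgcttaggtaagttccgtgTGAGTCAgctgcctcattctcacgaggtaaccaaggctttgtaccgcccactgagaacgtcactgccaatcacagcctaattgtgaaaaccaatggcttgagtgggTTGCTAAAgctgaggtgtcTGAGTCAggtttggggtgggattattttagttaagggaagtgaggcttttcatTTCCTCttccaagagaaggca
Trem2: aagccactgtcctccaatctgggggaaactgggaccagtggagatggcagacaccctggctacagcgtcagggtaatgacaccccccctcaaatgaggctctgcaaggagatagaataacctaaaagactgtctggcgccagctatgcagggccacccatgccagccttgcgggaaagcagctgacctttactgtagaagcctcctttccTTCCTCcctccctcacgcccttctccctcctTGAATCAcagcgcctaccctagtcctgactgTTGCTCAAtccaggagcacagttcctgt
P2ry12: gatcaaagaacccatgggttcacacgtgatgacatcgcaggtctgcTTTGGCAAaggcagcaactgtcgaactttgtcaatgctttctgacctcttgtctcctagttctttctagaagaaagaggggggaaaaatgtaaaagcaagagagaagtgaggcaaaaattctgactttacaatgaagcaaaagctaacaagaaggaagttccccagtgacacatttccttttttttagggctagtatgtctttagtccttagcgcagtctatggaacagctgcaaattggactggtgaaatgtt
The PU box letters are in 4 of the 6 promoters (Aif1, Itgam, Cd68 and Trem2) and in 28.3% of 32851 promoters of the same length. AP-1 letters are in 2 of the 6 (Cd68 and Trem2) and in 7.81% of all, and C/EBP letters are in 3 of the 6 (P2ry12, Cd68 and Trem2) and in 10.8% of all. The promoter of Cx3cr1 holds none of these letters. The motifs were chosen after the sequences had been read, so these counts describe the sequences and give no test of the factors.

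The relative abundance of the markers can be set side by side only per length. In TPM, the transcript abundance scaled by the gene lengths of the table and without TMM, OIR retinas held 128 ± 61.7 of Tyrobp, 96.3 ± 61.7 of Cd68, 39.6 ± 9.10 of Csf1r, 27.8 ± 6.45 of Cx3cr1 and 20.5 ± 8.45 of Trem2 (mean ± SD, n = 3). Aif1 followed at 9.53 ± 3.34 TPM, Tmem119 at 6.42 ± 1.47, P2ry12 at 6.22 ± 0.818 and Itgam at 3.61 ± 2.0. Neighbours in this order overlapped within their SDs throughout. In control retinas the same order was Tyrobp at 95.5 ± 89.9, Cd68 at 62.4 ± 79.8, Csf1r at 28.6 ± 14.9, Cx3cr1 at 15.8 ± 4.86, Trem2 at 12.9 ± 13.3 and Tmem119 at 11.9 ± 3.96 TPM. The control mean of Trem2 rested on mouse 1, at 28.2 TPM of Trem2 against 16.0 of Tmem119. In control mice 6 and 7 Trem2 was at 6.31 and 4.11 TPM and Tmem119 above it, at 11.6 and 8.11, whereas in each OIR mouse Tmem119 was below Trem2. In OIR+32-134D retinas no marker had a group mean above the 26.5 ± 2.76 TPM of Tyrobp. In mouse 2 of that group, however, Cd68 was at 29.1 TPM and Tyrobp at 23.3. The TPM of OIR+32-134D mouse 2 are lowered by the share its crystallin transcripts take.

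**Figure D1:**
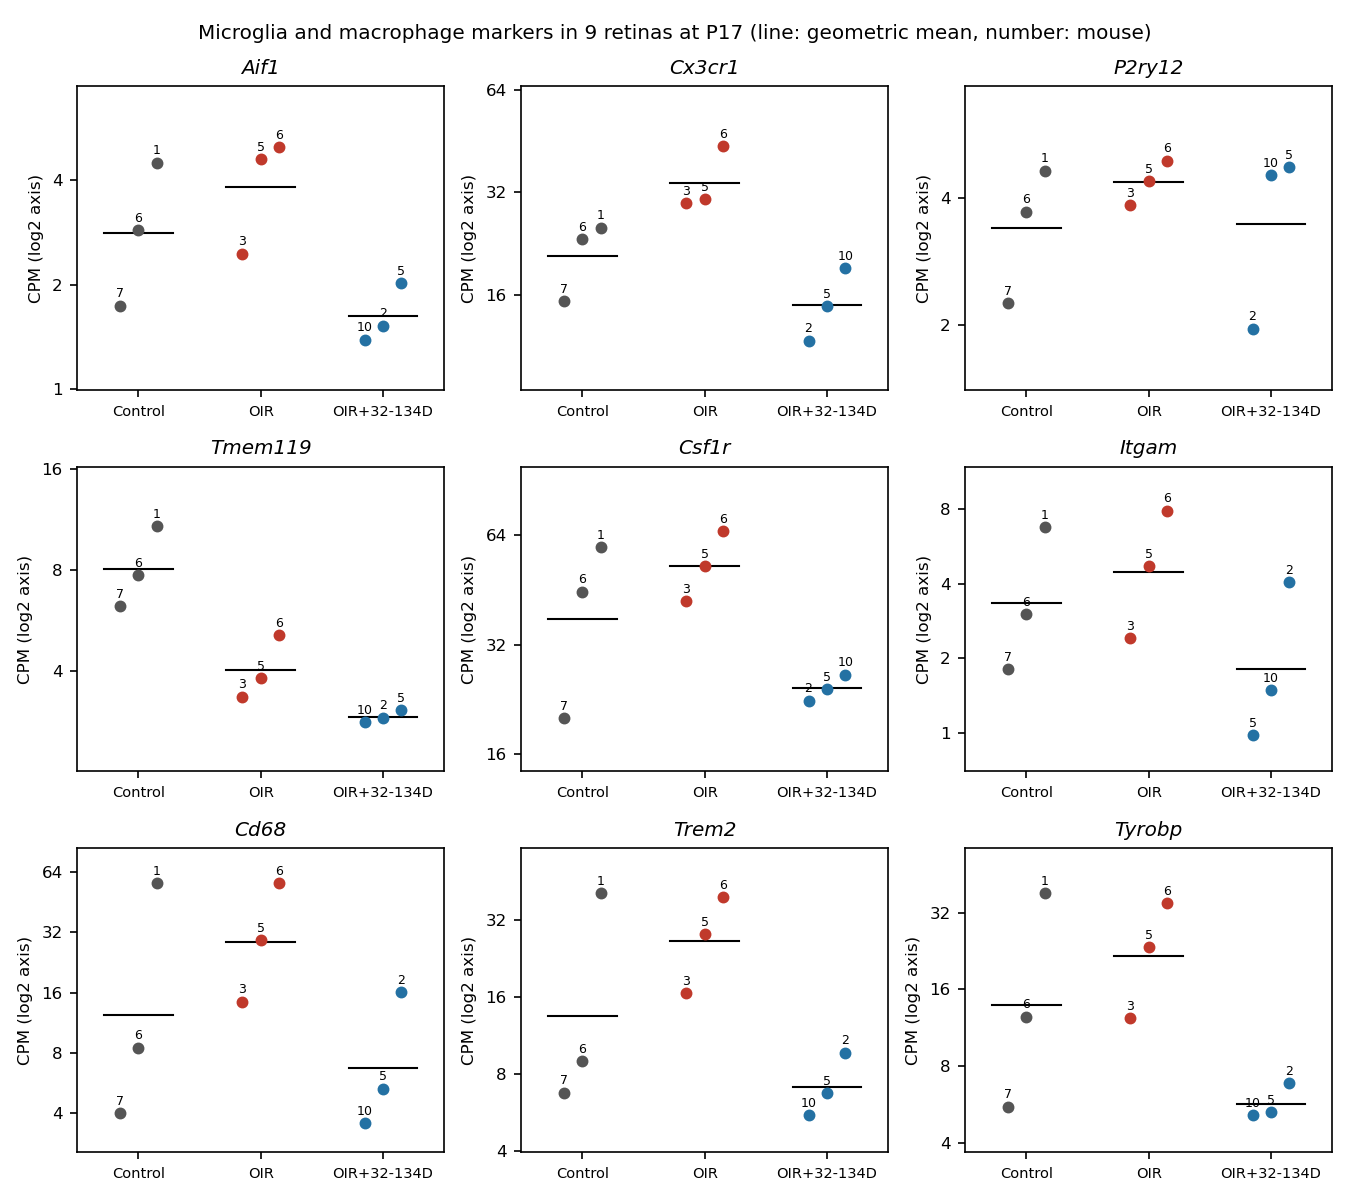
CPM of each of the 9 markers in each mouse, on a log2 axis that differs between panels, with the mouse number above each point and a line at the geometric mean of the group. Control mouse 1 is the highest control mouse and OIR mouse 6 the highest OIR mouse in all 9 panels, and 6 panels (Aif1, Cx3cr1, Tmem119, Csf1r, Trem2 and Tyrobp) have the OIR+32-134D mice below every OIR mouse.

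The comparison of OIR with control retinas asks what the ischemic retina does to these markers without the inhibitor. Cx3cr1, the fractalkine receptor, was higher in all 3 OIR mice than in all 3 control mice, and Tmem119, a membrane protein of resident microglia, was lower in all 3. The other 7 markers overlapped between the groups, and 0 of 9 markers were called by edgeR, against 0.941% of all tested genes. Of the 9 markers, 8 had a higher mean in OIR (53.5% of all genes did), and the median log2 fold change over the 9 was 0.37, against 0.03 over all genes.

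Cx3cr1 measured 25.2, 23.3 and 15.3 CPM in control mice 1, 6 and 7 and 29.7, 30.5 and 43.8 CPM in OIR mice 3, 5 and 6. The groups did not overlap. Its log2 fold change was 0.70 ± 0.25 (SE), with an unadjusted p of 0.0202 and an adjusted p of 0.140 in edgeR. Tmem119 measured 10.8, 7.73 and 6.25 CPM in control mice 1, 6 and 7 and 3.37, 3.82 and 5.13 CPM in OIR mice 3, 5 and 6. The lowest control mouse was above the highest OIR mouse, with a log2 fold change of -1.01 ± 0.26, an unadjusted p of 0.00401 and an adjusted p of 0.0821. In each direction 1 of 9 markers was without overlap, against 15.9% of all genes for higher and 17.2% for lower, and 1 of 9 was at an unadjusted p below 0.05, against 11.1% and 12.7%. DESeq2 on the 2 groups called both genes, Cx3cr1 at an adjusted p of 0.0216 and Tmem119 at 0.0121, where it called 15.5% of all genes in either direction. DESeq2 on all 9 mice (11.6% of all genes called in either direction), limma-voom (13.1%) and edgeR without OIR+32-134D mouse 2 (12.5%) each called 1 marker, Tmem119. Without control mouse 7 or without OIR mouse 6, Cx3cr1 was not at an unadjusted p below 0.05, with a log2 fold change of 0.52 or 0.50. Exact permutation tests of either gene gave p = 0.1, the smallest value that 3 mice against 3 allow.

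For the phagocytic markers the outcome rested on single mice. Cd68 measured 56.5 CPM in control mouse 1, against 8.47 and 4.0 CPM in control mice 6 and 7. In OIR mice 3, 5 and 6 it measured 14.4, 29.4 and 56.4 CPM. Trem2 measured 40.6 CPM in control mouse 1, against 9.02 and 6.77 in the other control mice and 16.6, 28.1 and 39.2 in the OIR mice. Both genes were thus as high in this control mouse as in OIR mouse 6, while the other control mice were below every OIR mouse. With all mice, the log2 fold change was 0.53 ± 0.93 for Cd68 and 0.57 ± 0.62 for Trem2, neither separable from 0. Without control mouse 1 it was 2.41 for Cd68 (unadjusted p 0.0171), 1.82 for Trem2 (0.00180) and 1.38 for Tyrobp (0.0204), and 5 of 9 markers were at an unadjusted p below 0.05. Of these, 4 were higher and 1 lower in OIR, against 11.0% and 12.1% of all genes in that fit, again with 0 called at an adjusted p below 0.05. Without both control mouse 1 and OIR+32-134D mouse 2, a fit chosen after the values were seen, edgeR called Cd68 (adjusted p 0.0270) and Trem2 (adjusted p 0.0131) as higher in OIR, 2 of 9 markers against 13.2% of all genes in either direction, and the median log2 fold change of the 9 was 0.83. Without OIR mouse 6 the log2 fold changes of Cd68, Tyrobp and Itgam were -0.08, -0.07 and -0.13, and without control mouse 7 that of Tyrobp was -0.11. Control mouse 1 was also the 1 female among the control mice, and within sex the mean log2 CPM of the 9 markers differed between OIR and control by 1.22 in males (2 against 2) and by -1.04 in females (1 against 1), so sex and this mouse cannot be told apart in that group.

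**Figure D2:**
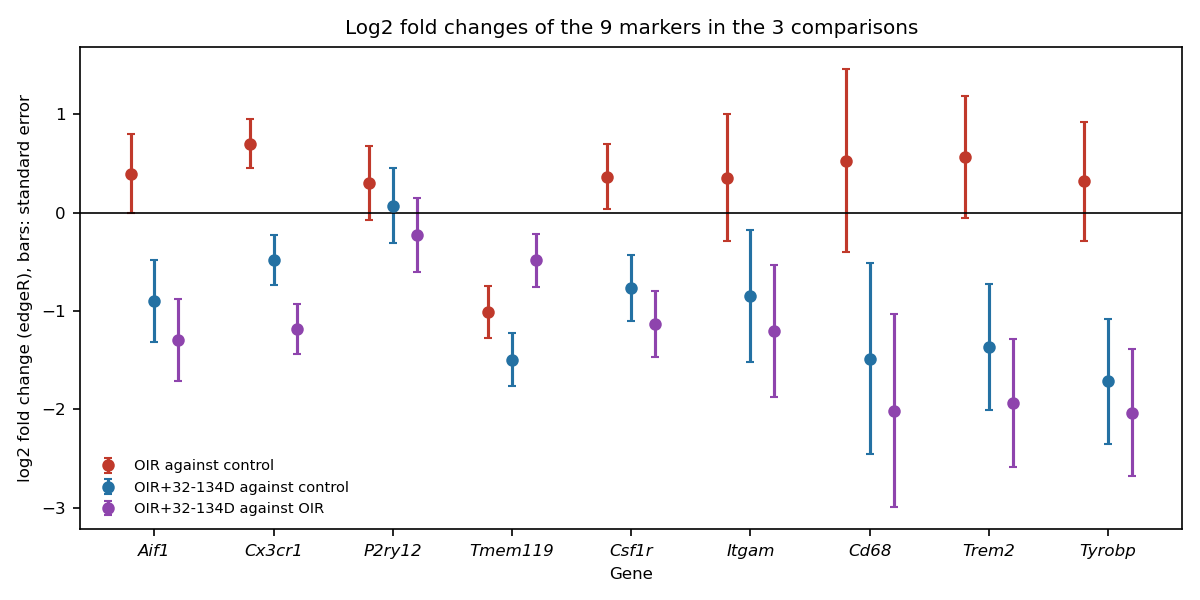
Log2 fold change of each marker in edgeR on all 9 mice, with its standard error, in the 3 comparisons. All 9 values of OIR+32-134D against OIR are below 0, from -2.03 for Tyrobp to -0.23 for P2ry12, and Tmem119 is the 1 marker below 0 in OIR against control.

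OIR+32-134D retinas are compared with OIR retinas to ask what the inhibitor does to these markers in the ischemic retina. Marker RNA was lower in OIR+32-134D than in OIR retinas for 9 of 9 markers (48.7% of all genes were lower), with a median log2 fold change of -1.20 against 0.01 over all genes. Tyrobp, Cd68 and Trem2 had the lowest values, at 0.245, 0.248 and 0.262 times the OIR level, and P2ry12 was nearest to no difference, at 0.855 times. The single tests are weak, and 0 of 9 markers were called by edgeR at an adjusted p below 0.05, as were 0% of all tested genes. At an unadjusted p below 0.05, 5 of 9 markers were lower (Aif1, Csf1r, Cx3cr1, Trem2 and Tyrobp), against 2.30% of all genes. The groups did not overlap for 6 of 9 (these 5 and Tmem119), against 5.39% of all genes, and 7 of 9 were lower by a log2 fold change beyond 1, against 2.20%.

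Among receptors and their adaptor, Tyrobp measured 12.4, 23.4 and 34.8 CPM in OIR mice 3, 5 and 6 and 6.85, 5.27 and 5.14 CPM in OIR+32-134D mice 2, 5 and 10. Every treated mouse was below every OIR mouse, and the treated mice lay close together. Its log2 fold change was -2.03 ± 0.64 (SE), with an unadjusted p of 0.0112 and an adjusted p of 0.984. Trem2, its partner receptor, measured 9.71, 6.75 and 5.55 CPM in OIR+32-134D mice 2, 5 and 10, also below the 16.6 CPM of the lowest OIR mouse, with a log2 fold change of -1.93 ± 0.65 and an unadjusted p of 0.0153. Csf1r, the receptor for CSF1 and IL34 (chr18:61105572-61132149 in the table), measured 42.1, 52.6 and 65.6 CPM in OIR mice 3, 5 and 6 and 22.5, 24.2 and 26.5 CPM in OIR+32-134D mice 2, 5 and 10. The highest treated mouse was well under the lowest OIR mouse, with a log2 fold change of -1.13 ± 0.33 and an unadjusted p of 0.00791. Cx3cr1 measured 11.7, 14.8 and 19.2 CPM in OIR+32-134D mice 2, 5 and 10, without overlap with the 29.7 to 43.8 CPM of the OIR mice. It had the smallest unadjusted p of the 9 markers, 0.00112, at a log2 fold change of -1.18 ± 0.25, and an adjusted p of 0.838.

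Aif1, which encodes the calcium-binding protein IBA1 widely used to stain microglia, measured 2.46, 4.61 and 4.99 CPM in OIR mice 3, 5 and 6 and 1.52, 2.02 and 1.39 CPM in OIR+32-134D mice 2, 5 and 10. The groups were apart, with a log2 fold change of -1.29 ± 0.42 and an unadjusted p of 0.0125, on 24 to 33 counts per treated mouse. The lysosomal marker Cd68 measured 16.1 CPM in OIR+32-134D mouse 2 and 5.27 and 3.55 in mice 5 and 10, so that mouse 2 was above OIR mouse 3 (14.4 CPM). Its log2 fold change was -2.01 ± 0.98 (unadjusted p 0.0699), and -2.90 without OIR+32-134D mouse 2 (unadjusted p 0.0245). Itgam, the integrin subunit CD11b that forms complement receptor 3 with ITGB2, measured 2.41, 4.71 and 7.87 CPM in OIR mice 3, 5 and 6 and 4.06, 0.981 and 1.49 CPM in OIR+32-134D mice 2, 5 and 10. Mouse 2 again lay inside the OIR range, and the log2 fold change was -1.20 ± 0.67 with it (unadjusted p 0.105) and -1.98 without it (unadjusted p 0.0159).

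The markers of resident microglia gave smaller differences between OIR+32-134D and OIR retinas. P2ry12 measured 3.85, 4.38 and 4.90 CPM in OIR mice 3, 5 and 6 and 1.97, 4.72 and 4.52 CPM in OIR+32-134D mice 2, 5 and 10. Treated mice 5 and 10 were inside the OIR range and mouse 2 was below it, with a log2 fold change of -0.23 ± 0.38 (unadjusted p 0.564) that became 0.11 without mouse 2. Tmem119 measured 2.92, 3.07 and 2.83 CPM in OIR+32-134D mice 2, 5 and 10, just under the 3.37 CPM of the lowest OIR mouse, with a log2 fold change of -0.48 ± 0.27 (unadjusted p 0.105).

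The calls between OIR+32-134D and OIR depended on the tool. edgeR on all 9 mice and on the 2 groups called 0 of 9 markers, and limma-voom called 0 (0.00570% of all genes). It had 7 markers lower at an unadjusted p below 0.05, against 7.53% of all genes, a share that was 2.30% in edgeR. DESeq2 on all 9 mice called 1, Cx3cr1, at an adjusted p of 0.0145, where it called 0.217% of all genes in either direction. DESeq2 on the 2 groups called 4, Csf1r at an adjusted p of 0.000365, Cx3cr1 at 0.00645 and Trem2 and Tyrobp both at 0.000219, where it called 0.448% of all genes in either direction. Leaving out each mouse in turn gave 5 to 7 markers lower at an unadjusted p below 0.05 and a median log2 fold change of -1.54 to -0.98, with 0 called. The share of all genes lower in the same way ran from 1.07% without OIR mouse 6, where 5 markers were, to 4.69% without OIR+32-134D mouse 2, where 7 were. Within sex the mean log2 CPM of the 9 markers differed between OIR+32-134D and OIR by -0.65 in females (2 against 1) and by -1.66 in males (1 against 2).

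OIR+32-134D with control asks how far the treated retinas lay from those without OIR. This comparison shares its mice with the other comparisons, so its values are not independent of them. Tmem119, the marker lower in OIR, was lower here too, and the other 8 overlapped with control. It measured 6.25 to 10.8 CPM in control mice and 2.83 to 3.07 CPM in OIR+32-134D mice, with a log2 fold change of -1.49 ± 0.27, an unadjusted p of 0.000350 and an adjusted p of 0.102. In mean level 8 of 9 markers were lower than in control, as were 48.6% of all genes. Of the 9 markers, 1 was without overlap and lower (12.2% of all genes were), and 0 were called by edgeR, against 0.0228% of all genes. DESeq2 on the 2 groups called Tmem119 (adjusted p 0.00192), 1 of 9 against 1.56% of all genes in either direction, and limma-voom called the same gene (5.28% of all genes in either direction). DESeq2 on all 9 mice called 2, Tmem119 and Tyrobp (4.22% of all genes).

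Another 2 markers had an unadjusted p below 0.05 between OIR+32-134D and control, Csf1r (0.0463) and Tyrobp (0.0245), which with Tmem119 made 3 of 9 against 8.60% of all genes. The count was 1 of 9 without control mouse 1 (7.91% of all genes) or without OIR+32-134D mouse 5 (6.79%), and 6 of 9 without control mouse 7 (5.45%). Csf1r had a log2 fold change of -0.77 ± 0.33 and Tyrobp of -1.71 ± 0.64. The median over the 9 markers was -0.90, and without control mouse 1 it was -0.34. Tyrobp measured 38.2 CPM in control mouse 1 against 12.5 and 5.54 in control mice 6 and 7, and its log2 fold change was -0.66 (unadjusted p 0.194) when the mouse was left out. Cd68 turned from -1.48 to 0.40 in the same way. Tmem119 kept a log2 fold change of -1.25 without control mouse 1 (unadjusted p 0.00144). P2ry12 gave a log2 fold change of 0.07 ± 0.38 and overlapped with control. Within sex the mean log2 CPM of the 9 markers differed between OIR+32-134D and control by -1.69 in females (2 against 1) and by -0.44 in males (1 against 2).

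**Figure D3:**
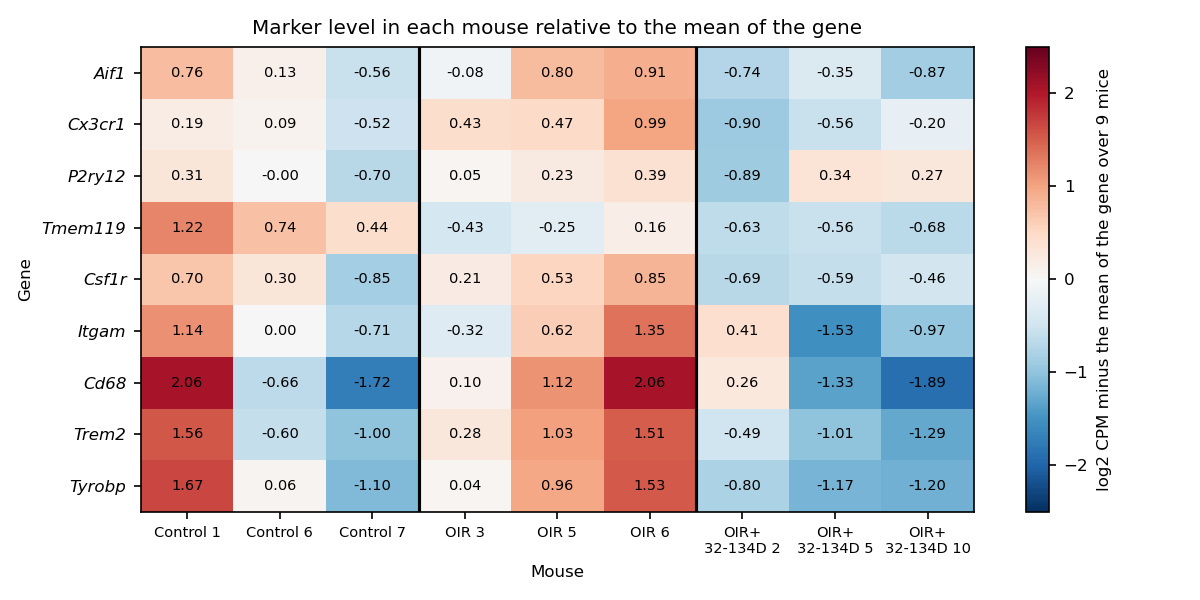
Log2 CPM of each marker in each mouse, less the mean of that marker over the 9 mice, with red above and blue below the mean. Control mouse 1 and OIR mouse 6 are above the mean in all 9 rows and OIR mouse 5 in 8, and Tmem119 is above its mean in all 3 control mice.

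The markers varied together across mice, but not as 1 block. The mean log2 CPM over the 9 was 4.18, 3.12 and 2.37 in control mice 1, 6 and 7, with an SD of 0.912 in that group. It ranged from 3.15 to 4.20 in OIR mice (SD 0.528) and from 2.31 to 2.62 in OIR+32-134D mice (SD 0.167). Over the 36 pairs of markers, Pearson's r of log2 CPM across the 9 mice had a median of 0.76 and ran from 0.09 to 0.97, with points that share group, library and depth. Cd68, Trem2 and Tyrobp were the most alike, at 0.93 to 0.97 between them. P2ry12 and Tmem119 were least like the mean of the other 8 markers, at r of 0.42 and 0.47, against 0.78 or more for the other 7.

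Relative to the mean of the other 8 markers, a measure chosen after the values were seen, Tmem119 stood at -0.22 ± 0.59 log2 CPM in control, -1.84 ± 0.28 in OIR and -0.93 ± 0.20 in OIR+32-134D retinas (mean ± SD, n = 3). OIR mice did not overlap with either of the other groups (exact permutation p = 0.1 for both, the smallest possible), while OIR+32-134D and control mice did overlap (exact permutation p = 0.2). The same measure placed Trem2 at 1.16 ± 0.12 in OIR and 0.48 ± 0.27 in OIR+32-134D retinas, and Tyrobp at 0.84 ± 0.26 and 0.12 ± 0.07, again without overlap (exact permutation p = 0.1 for both). For Aif1, Csf1r, Cx3cr1 and Itgam the relative level differed by at most 0.17 log2 units between OIR+32-134D and OIR, within the spread of the mice. P2ry12 differed by 1.07 and Cd68 by -0.92 log2 units, with overlap (exact permutation p = 0.3 for both).

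Among the 8 genes outside the list whose log2 CPM most resembled the marker mean over the 9 mice, out of 13969 genes compared, were Cd37, Ctss, C1qb, Pld4, C1qc, Tlr7 and Vav1, at r of 0.98 to 0.99. Ctss encodes a lysosomal protease, C1qb and C1qc subunits of complement C1q, and Tlr7 an endosomal receptor for RNA. Their log2 fold changes between OIR+32-134D and OIR were -1.31 for Ctss, -1.44 for C1qb, -1.49 for C1qc and -2.10 for Tlr7. These were picked for their likeness to the marker mean in the same mice and are no independent result.

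TREM2 and TYROBP signal through SYK and PLCG2, INPP5D opposes this signal, HCST is a related adaptor and APOE and CLU are lipoprotein ligands of TREM2. Of the 8 genes on this list, 7 were tested, Sirpb1a being at 0 to 0.321 CPM. Between OIR+32-134D and OIR, 6 of the 7 had a lower mean (48.7% of all genes did). An unadjusted p below 0.05 was reached by 2, both lower (2.30% of all genes), with 0 called by edgeR. Apoe measured 2948, 3672 and 4861 CPM in OIR mice 3, 5 and 6 and 1590.3, 1873 and 1344.5 CPM in OIR+32-134D mice 2, 5 and 10. The groups did not overlap, with a log2 fold change of -1.26 ± 0.26, an unadjusted p of 0.000962 and an adjusted p of 0.838, and DESeq2 on the 2 groups gave an adjusted p of 0.000219. Inpp5d was 10.9 to 16.2 CPM in OIR and 5.33 to 6.68 CPM in OIR+32-134D mice (log2 fold change -1.04 ± 0.42, unadjusted p 0.0346). Apoe is also made by Müller glia and astrocytes, so its level is not that of microglia alone. Between OIR and control, Apoe had a log2 fold change of 0.75 ± 0.26 (unadjusted p 0.0174) and 5 of the 7 genes had a higher mean (53.5% of all genes did), with 0 called by edgeR.

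**Figure D4:**
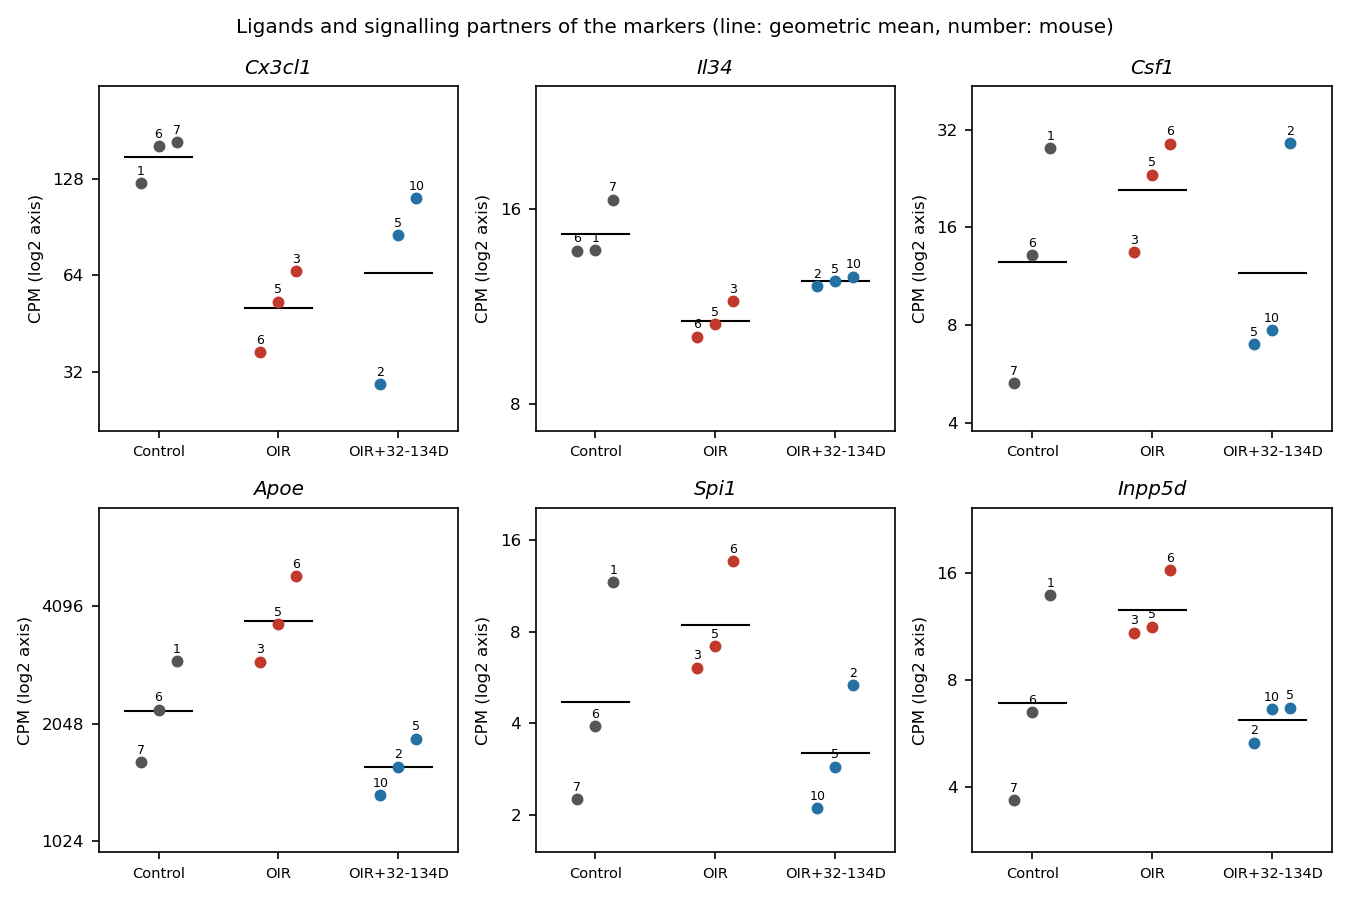
CPM of Cx3cl1, Il34, Csf1, Apoe, Spi1 and Inpp5d in each mouse, on a log2 axis that differs between panels, with mouse numbers and a line at the geometric mean of the group. Cx3cl1 is lower in every OIR mouse (36.8 to 66.1 CPM) than in every control mouse (124 to 167 CPM), while Apoe and Inpp5d are lower in every OIR+32-134D mouse than in every OIR mouse.

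Ligands of these receptors were measured in the same retinas. Cx3cl1, the neuronal ligand of CX3CR1, measured 124, 162 and 167 CPM in control mice 1, 6 and 7 and 66.1, 53.0 and 36.8 CPM in OIR mice 3, 5 and 6. It was lower in every OIR mouse where Cx3cr1 was higher, with a log2 fold change of -1.54 ± 0.42, an unadjusted p of 0.00494 and an adjusted p of 0.0874 in edgeR, and DESeq2 on the 2 groups gave an adjusted p of 1.02e-11. In OIR+32-134D mice 2, 5 and 10 it measured 29.2, 85.4 and 111 CPM, on both sides of the OIR range (log2 fold change 0.54 ± 0.41, unadjusted p 0.223). Slc17a6, a glutamate transporter of retinal ganglion cells, was lowest in the same mice as Cx3cl1, at 4.18 CPM in OIR mouse 6 and 1.01 CPM in OIR+32-134D mouse 2, against 66.6 to 107 CPM in control mice. Its part in the level of Cx3cl1 was not tested.

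Il34, a ligand of CSF1R made mostly by neurons, measured 13.8, 13.8 and 16.6 CPM in control mice 1, 6 and 7 and 11.5, 10.6 and 10.2 CPM in OIR mice 3, 5 and 6, without overlap (log2 fold change -0.45 ± 0.14, unadjusted p 0.0105, adjusted p 0.110). In OIR+32-134D mice it was 12.2 to 12.6 CPM, between the other groups. Csf1, the other ligand, overlapped in all comparisons and was 29.1 CPM in OIR+32-134D mouse 2 against 6.99 and 7.71 CPM in treated mice 5 and 10. On the list of 10 CSF1R ligands and myeloid transcription factors, 7 had a lower mean in OIR+32-134D than in OIR (48.7% of all genes did). Only 1, Cebpa, was lower at an unadjusted p below 0.05 (log2 fold change -1.62 ± 0.71, p 0.0467), against 2.30% of all genes, with 0 called. Spi1, which encodes PU.1, measured 6.10, 7.18 and 13.7 CPM in OIR mice 3, 5 and 6 and 5.33, 2.88 and 2.11 CPM in OIR+32-134D mice 2, 5 and 10. The groups did not overlap, and the log2 fold change was -1.39 ± 0.62 (unadjusted p 0.0512). Itgb2, the partner chain of Itgam, followed it, at 8.82 CPM in OIR+32-134D mouse 2 and 1.90 and 2.0 CPM in mice 5 and 10, and overlapped with the 6.84 to 22.4 CPM of OIR mice. The list of 5 genes around CX3CR1 and ITGAM also holds Icam1 and the integrin chains Itgal and Itgax, which pair with ITGB2 in place of ITGAM. Of the 5, 4 had a lower mean in OIR+32-134D than in OIR (48.7% of all genes did), and Itgal had an unadjusted p of 0.0212.

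Other genes of homeostatic microglia, 16 in all, gave a median log2 fold change of -0.66 between OIR+32-134D and OIR, smaller than that of the markers. Of the 16, 12 were lower (48.7% of all genes were) and 6 were lower at an unadjusted p below 0.05 (2.30% of all genes). Among these 6 were Csf3r, Cd33, Mertk, Ctss and Fcrls. Csf3r, the receptor for granulocyte colony-stimulating factor, had the lowest of these values, -1.82 ± 0.40 (unadjusted p 0.00142). Between OIR and control the median of the 16 was 0.16, and 0.52 without control mouse 1 and OIR+32-134D mouse 2. Adgrg1 was lower in OIR (log2 fold change -0.83 ± 0.20, unadjusted p 0.00200) and Lpcat2 higher (0.67 ± 0.16, unadjusted p 0.00256), with 0 of 16 called by edgeR in either comparison. Siglech, a receptor of microglia that pairs with TYROBP, overlapped between the groups, with 0.317, 1.84 and 2.62 CPM in OIR+32-134D mice 2, 5 and 10 against 0.405 to 2.19 CPM in OIR mice.

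Of 26 genes of microglial activation and the lysosome, 22 were tested, and 21 of the 22 had a lower mean in OIR+32-134D than in OIR (48.7% of all genes did). Their median log2 fold change was -1.10, and -1.68 without control mouse 1 and OIR+32-134D mouse 2. An unadjusted p below 0.05 was reached by 5, Apoe, Clec7a, Cd74, Ctsb and Fcgr3, all lower (2.30% of all genes were), and 0 were called by edgeR. Clec7a, the beta-glucan receptor dectin-1, measured 6.95, 12.9 and 23.3 CPM in OIR mice 3, 5 and 6 and 3.11, 2.02 and 2.06 CPM in OIR+32-134D mice 2, 5 and 10, without overlap (log2 fold change -2.58 ± 0.86, unadjusted p 0.0145). Between OIR and control, 17 of the 22 had a higher mean (53.5% of all genes did), with a median of 0.55 that was 1.67 without control mouse 1 and OIR+32-134D mouse 2. Control mouse 1 was set apart by this list, with 1675 CPM of Spp1 against 48.4 and 24.5 in control mice 6 and 7, and 14.7 CPM of Itgax against 0.644 and 0.129.

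**Figure D5:**
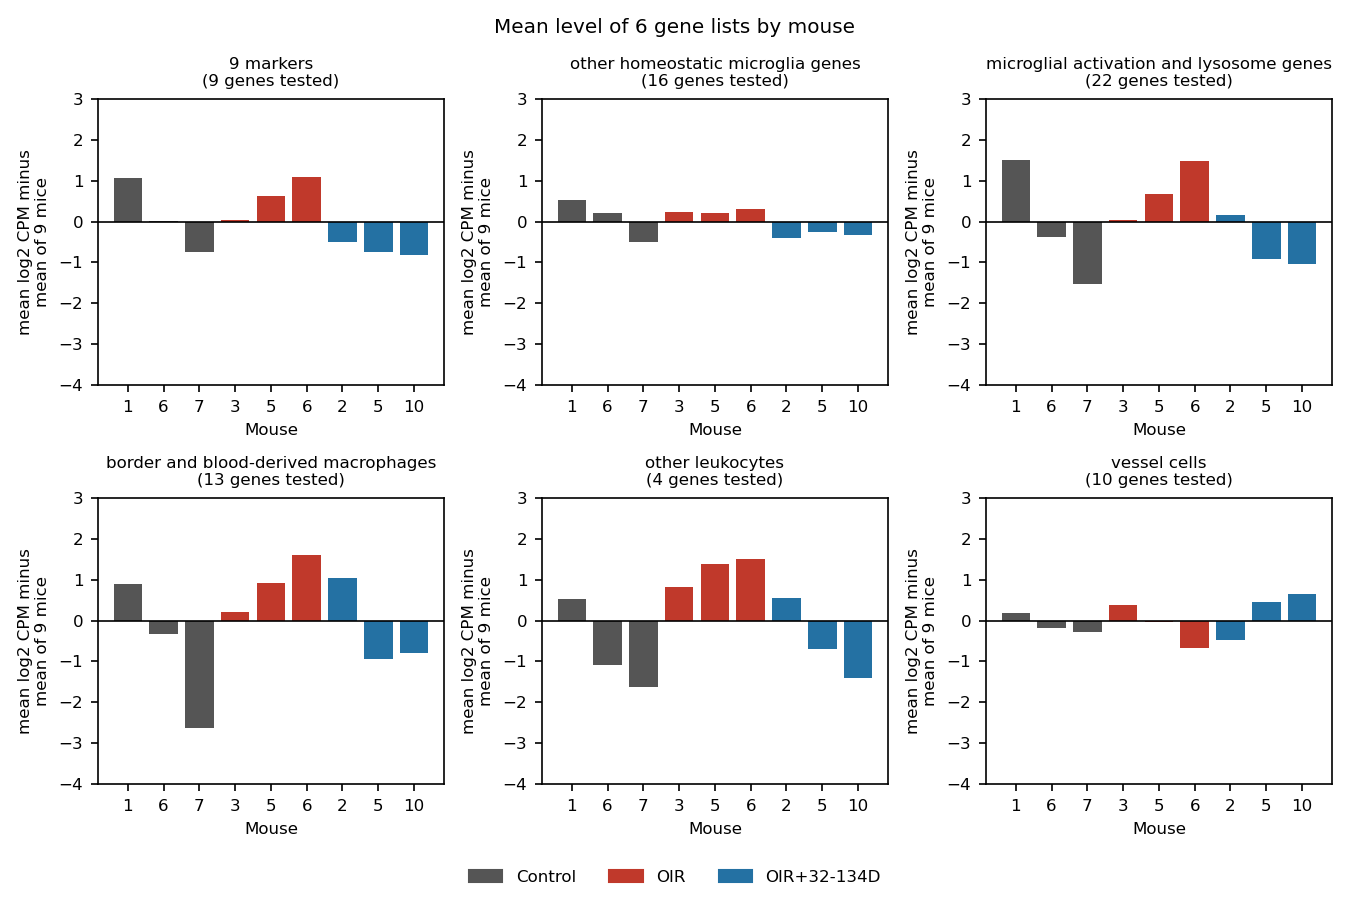
Mean log2 CPM of 6 gene lists in each mouse, less the mean over the 9 mice, as bars from 0 with control in grey, OIR in red and OIR+32-134D in blue. The 9 markers are low in all 3 OIR+32-134D mice, while the mean over genes of border and blood-derived macrophages is high in OIR+32-134D mouse 2 and low in mice 5 and 10.

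Macrophages of the borders and blood share most of the 9 markers. Of 14 genes that mark them, 13 were tested, and the summed level of the 14 was 33.2 to 147 CPM in control, 76.5 to 193 CPM in OIR and 43.6 to 145 CPM in OIR+32-134D mice. The highest treated value was that of mouse 2, the mouse with high lens RNA, and the others were at 46.4 and 43.6 CPM. Between OIR+32-134D and OIR, 11 of 13 had a lower mean (48.7% of all genes did), with a median log2 fold change of -0.69, and of -2.05 without OIR+32-134D mouse 2 and control mouse 1. Mrc1 measured 17.2 CPM in OIR+32-134D mouse 2 and 2.58 and 2.88 CPM in mice 5 and 10, and at least 4.71 CPM in each OIR mouse. Ccr2, a receptor of blood monocytes, was at 0.855 to 2.25 CPM in OIR mice, at most 0.419 CPM in control mice, and 1.71, 0 and 0.0514 CPM in OIR+32-134D mice 2, 5 and 10. Set against the OIR mice, genes of this list did not move together in OIR+32-134D mouse 2. Cd163 (4.38 CPM) and F13a1 (27.0 CPM) were above every OIR mouse, as was Mrc1. Ms4a7 (1.14 CPM), Cd36 (4.50 CPM) and Plac8 (0.254 CPM) were below every OIR mouse. Set against treated mice 5 and 10, the higher Cd68 and Itgam of OIR+32-134D mouse 2 came with higher Mrc1, Ccr2 and lens RNA. Ms4a7 (0.491 and 1.03 CPM in mice 5 and 10), Cd36 (2.02 and 2.21 CPM) and Plac8 (0.123 and 0.154 CPM) were also higher in mouse 2. The mean log2 CPM of the 13 tested genes was 2.35 in mouse 2 and 0.35 and 0.51 in mice 5 and 10. The part of these genes in the levels of Cd68 and Itgam was not tested.

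Of 15 genes of other leukocytes, 4 were tested (Ptprc, S100a8, S100a9 and Kit), and the summed level of the 15 was 9.80 to 17.0 CPM in control, 19.4 to 21.4 CPM in OIR and 12.4 to 18.2 CPM in OIR+32-134D mice. Much of this sum was Kit, the stem cell factor receptor, at 7.13 to 8.45 CPM in control, 6.88 to 13.2 CPM in OIR and 10.6 to 15.8 CPM in OIR+32-134D mice. Cpa3, a mast cell gene on the same list, was at most 0.0645 CPM in control, 0.140 CPM in OIR and 0 CPM in OIR+32-134D mice. Kit is not taken here as a measure of mast cells, and the cells that carried it were not tested. Ptprc, S100a8 and S100a9 together were at 7.96, 2.53 and 1.10 CPM in control mice 1, 6 and 7, at 6.58, 11.5 and 14.2 CPM in OIR mice 3, 5 and 6 and at 5.77, 1.78 and 1.08 CPM in OIR+32-134D mice 2, 5 and 10. On the sum of these 3 genes every treated mouse was below every OIR mouse, as for 6 of the 9 markers, and their part in the marker levels was not tested. Ptprc, which microglia and macrophages also carry, was most of this sum in OIR+32-134D mice 2, 5 and 10 (4.06, 1.53 and 1.03 CPM). The sum is therefore no separate measure of other leukocytes, and Kit was left out of it with its values known. S100a9 alone overlapped, at 1.14 CPM in OIR+32-134D mouse 2 against 1.07 CPM in OIR mouse 3. S100a8, a gene of neutrophils, measured 1.18, 4.15 and 2.92 CPM in OIR mice 3, 5 and 6, at most 0.524 CPM in control mice and at most 0.571 CPM in OIR+32-134D mice. Its log2 fold change was 3.72 ± 1.13 between OIR and control (unadjusted p 0.00916, adjusted p 0.106) and -3.49 ± 1.14 between OIR+32-134D and OIR (unadjusted p 0.0137), on few counts. Gfap, a filament protein of stressed glia, was 231, 316 and 703 CPM in OIR mice 3, 5 and 6, and mouse 6 also had the highest level of all 9 markers. OIR+32-134D mouse 2 had 398 CPM of Gfap, against 175 and 103 CPM in mice 5 and 10, and a marker mean of 2.62 log2 CPM. The 8 genes of gliosis gave a median log2 fold change of -0.05 between OIR+32-134D and OIR with all mice, and of -2.67 without OIR+32-134D mouse 2 and control mouse 1, where the 9 markers gave -1.21. Genes of vessel cells gave 0.47 with all mice and 0.73 without these mice, and those of retinal cells -0.05 and 0.08, against -1.20 for the 9 markers with all mice.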

How the data were processed

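Total RNA of 9 retinas was sequenced. The authors deposited raw counts, as whole numbers, for 54532 genes in 1 table that also gives gene lengths. The submitters' processing notes name CASAVA and HISAT, without versions. The counting tool, annotation and strand setting are not given in the sources used here. Positions equal those of GENCODE M21 for 98.3% of the identifiers found in both.

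Groups were taken from the sample labels, as 3 mice per group. Counts were fitted with edgeR 4.0.16 in R 4.3.3 (TMM, default filter by group, 1 mean per group over all 9 mice, quasi-likelihood test, Benjamini-Hochberg adjustment over 17540 genes). Fold changes come from that fit, and log2 CPM used a prior count of 2. For single genes an exact permutation test (two-sided) was added, which cannot go below 0.1 with 3 mice against 3. The labels do not say whether the mice of a group shared a litter. Counts of no mouse were a copy of another's. With 16028731 to 27213184 counts per mouse, the spread between mice outweighs counting error except in the lowest genes. Fits were tested on simulated counts.

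Other settings tried were DESeq2 1.42.0 (all 9 mice, or the 2 groups alone), edgeR restricted to 2 groups, limma 3.58.1 (voom with sample quality weights), DESeq2 size factors, upper-quartile scaling, total counts alone, crystallin genes removed before scaling, no filter, a minimum of 10 counts in every mouse, sex as a term, an added limit of 1 on the absolute log2 fold change, a prior count of 0.5 and leaving out each mouse. Leaving out control mouse 1 and OIR+32-134D mouse 2 together was added after the data were seen.

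The markers, the gene lists and the tests were chosen with earlier results of these data known. Genes named are the 9 markers, the genes of the TREM2-TYROBP, CSF1R and CX3CR1-ITGAM lists, from each other list up to 4 tested genes with the largest absolute log2 fold change in OIR against control and up to 4 in OIR+32-134D against OIR, and the 8 genes most correlated with the marker mean. Of these, 1 gene is not reported here by name. Ctsb, Fcgr3 and Mertk are named beside a count and Lyve1 beside a sum, having been chosen after their values were seen. Lists of lens, pigment epithelium and red blood cells were also measured, with median log2 fold changes between OIR+32-134D and OIR of 5.98, 0.44 and 1.57 with all mice and of -0.69, 0.73 and 1.32 without control mouse 1 and OIR+32-134D mouse 2. Python 3.11.15, pandas 2.3.3, numpy 2.4.6, scipy 1.17.1 and matplotlib 3.10.9 were used for tables, permutation tests and figures.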

Additional observations from a re-analysis of the deposited data

How the results depend on the processing

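Changes of scaling (4 alternatives), of the filter on low counts, of the prior count, the sex term, edgeR on the 2 groups and the added limit on the fold change left the direction of all 9 markers and the 0 calls of edgeR in place in the 3 comparisons, and other results moved as follows. Markers called in OIR against control were 1 with DESeq2 on all 9 mice, 2 with DESeq2 on the 2 groups, 1 with limma-voom, 0 to 1 when single mice were left out, and 2 without both control mouse 1 and OIR+32-134D mouse 2. In OIR+32-134D against control they were 2, 1 and 1 with the first 3 of these, and in OIR+32-134D against OIR they were 1 and 4 with DESeq2 on all 9 mice and on the 2 groups. The count of 4 was thus the highest of all settings tried in that comparison. Markers at an unadjusted p below 0.05 numbered 1 to 5 in OIR against control when single mice were left out. The count of 1, lower in OIR, came without control mouse 7 (8.02% of all genes lower in this way) or OIR mouse 6 (8.20%). The count of 5 came without control mouse 1 (11.0% of all genes higher and 12.1% lower). Without both mice, 4 were higher (13.9% of all genes) and 1 lower (16.4%). In OIR+32-134D against control they numbered 5 with limma-voom (13.4% of all genes were lower in this way). When single mice were left out they numbered 1 (7.91% without control mouse 1, 6.79% without treated mouse 5) to 6 (5.45% without control mouse 7). Without both mice there was 1, lower (6.60%). Log2 fold changes that changed sign were, in OIR against control, Tyrobp at -0.11 without control mouse 7, and Itgam at -0.13, Cd68 at -0.078 and Tyrobp at -0.07 without OIR mouse 6. In OIR+32-134D against control they were Cd68 at 0.40 without control mouse 1, and P2ry12 at -0.16 without control mouse 7, -0.13 without treated mouse 5 and -0.09 without treated mouse 10. In OIR+32-134D against OIR they were P2ry12 at 0.038 with limma-voom, 0.11 without treated mouse 2 and 0.11 without both. When single mice were left out, the log2 fold changes of these genes ran, in OIR against control, from -0.13 to 1.04 for Itgam, -0.078 to 2.41 for Cd68 and -0.11 to 1.38 for Tyrobp. In OIR+32-134D against control they ran from -0.16 to 0.38 for P2ry12 and -2.41 to 0.40 for Cd68, and in OIR+32-134D against OIR from -0.43 to 0.11 for P2ry12. The median over the 9 markers ran from 0.04 to 0.84, from -1.49 to -0.34 and from -1.54 to -0.98 in the 3 comparisons when single mice were left out. For these values the cause was not tested beyond the mice or genes left out. No paired analysis was possible because any 2 groups share at most 1 replicate number, and the numbers name single animals. Aif1, Itgam and P2ry12 rest on 16 to 194 counts per mouse, which limits their precision.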
